A study of Equus caballus with 23 samples.

Results

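The genes described here encode 9 enzymes or enzyme subunits of the tricarboxylic acid cycle: CS, IDH3A, IDH3B, OGDH, SUCLG1, SUCLA2, SDHB, FH and MDH2. They were taken from a list of gene symbols and matched to identifiers through the symbol column of the authors' annotation. All 9 were found among the 26991 genes of the count table, and all 9 passed the filter on low counts that left 11545 genes. RNA was sequenced from Arabian horses at 3 stages of preparation for flat racing, in biopsies that a needle took from the propulsive hindquarter muscle gluteus medius. Untrained horses, aged 2.5 years, gave 5 libraries called T0, of which 3 were male and 2 female. Horses that had completed the intense gallop phase ahead of the season, aged 3 years, gave 8 libraries called T1, with 4 of each sex. At the close of the racing season, also aged 3 years, 7 males and 3 females gave the 10 T2 libraries. Nothing in the labels shows if stages share horses, so each p-value reflects only how far the libraries of a stage differ among themselves. Every T0 horse was younger than the others, so training and age cannot be told apart against T0.

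The tricarboxylic acid cycle runs in the mitochondrial matrix, where it oxidizes acetyl groups from carbohydrate, fat and amino acids to carbon dioxide. It passes the electrons on as NADH and FADH2 to the respiratory chain. Oxidative muscle fibres are rich in mitochondria, and the activity of citrate synthase is widely used as a measure of mitochondrial content in muscle that adapts to endurance work. In these bulk biopsies fewer cells of a type and less RNA per cell cannot be told apart.

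Total counts ranged from 12604125 to 17477172 in T0 libraries, from 15417737 to 23641809 in T1 libraries and from 12185608 to 19804694 in T2 libraries. All 11 skeletal muscle fibre markers were detected in every group. Mitochondrially encoded genes took on average 42.9%, 53.0% and 48.1% of all counts at T0, T1 and T2. A fibre score was the mean log2 CPM of 15 slow fibre genes minus that of 13 fast fibre ones. The lists hold contractile genes and others, such as the calcium pump genes ATP2A2 and ATP2A1. The fast list counts MYH2 under both of its identifiers and lacks MYH1 and PVALB. The score ranged from -5.04 to -3.31 at T0, from -2.15 to 3.66 at T1 and from -4.56 to -2.32 at T2. The T1 libraries therefore lay above all others on this score, and T1 library m3 stood apart with the value of 3.66. T0 library m12 stood apart in several of the genes below, and calls of single genes that changed without m3 and m12 are given both ways.

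Levels across the stages are given here in CPM on TMM-scaled library sizes. CS, OGDH, SDHB and IDH3B had their highest mean at T1, and only CS and OGDH of the 9 genes changed at T2 against T1. IDH3A, SUCLA2, MDH2, SUCLG1 and FH had their highest mean at T2, by differences from T1 that did not pass the test. The 9 genes together made up 0.549% ± 0.084, 0.691% ± 0.078 and 0.657% ± 0.061 of the nuclear-encoded counts at T0, T1 and T2 (SD, n = 5, 8 and 10). Of all counts, mitochondrially encoded ones included, they made up 0.314% ± 0.068, 0.325% ± 0.046 and 0.340% ± 0.026. The TMM factors ran from 0.749 to 1.45 at T0, from 0.660 to 1.07 at T1 and from 0.802 to 1.22 at T2. CPM values and fold changes given here depend on this scaling. Transcript lengths were not used, so the level of one gene is not compared with that of another.

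**Figure D1:**
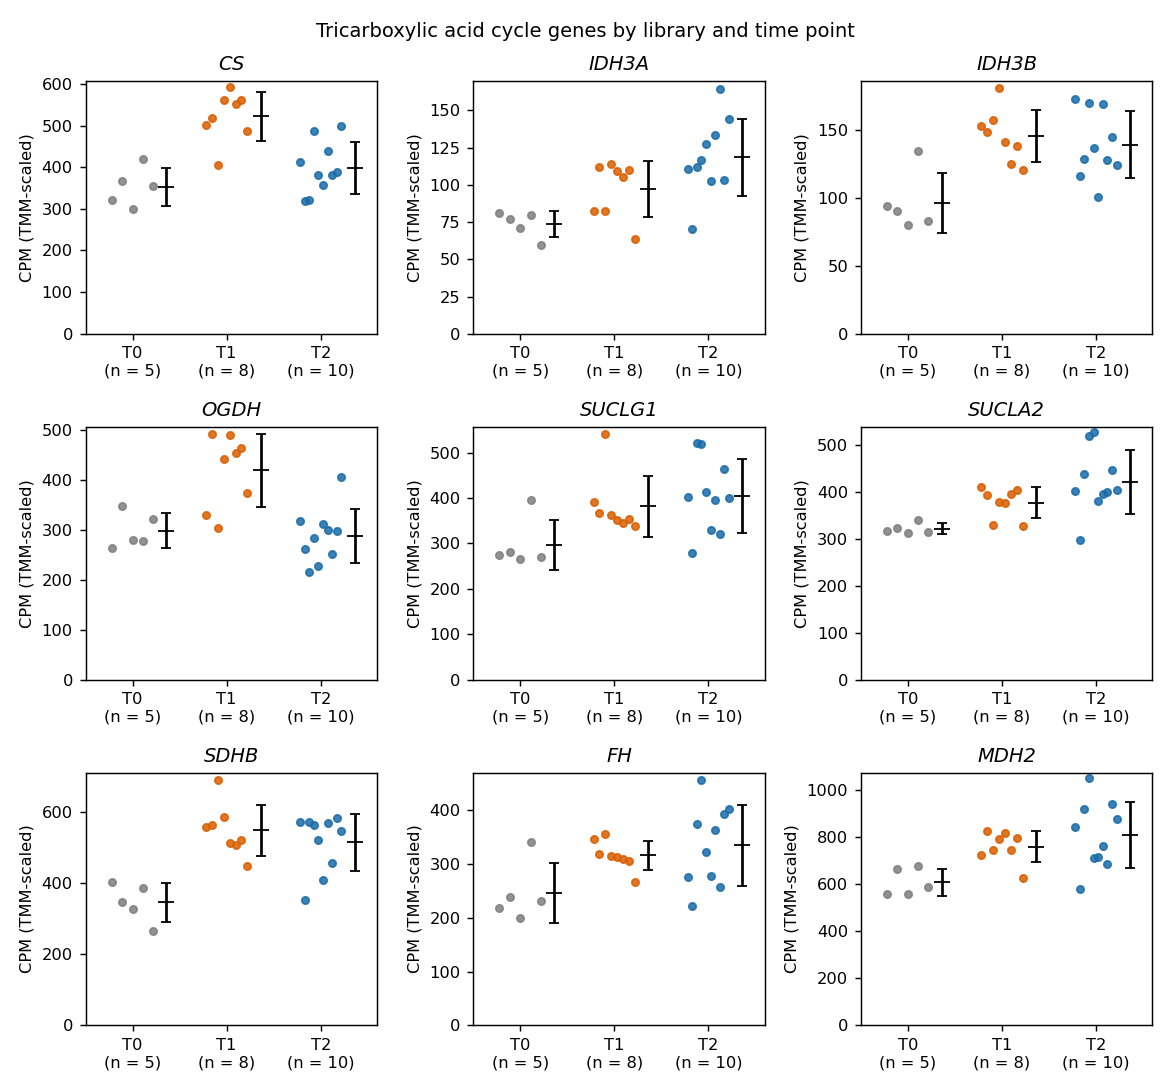
Level of each of the 9 genes in CPM (vertical axes, each from 0) in every library at T0 (n = 5), T1 (n = 8) and T2 (n = 10); points are libraries, and the bar beside them is the mean ± SD. CS and OGDH have their highest mean at T1 (522 and 418 CPM), SDHB and IDH3B are above their T0 mean at both later stages, and IDH3A has its highest mean at T2 (118 CPM).

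CS, citrate synthase (ENSECAG00000016568, chromosome 6, 73932860 to 73953220), joins acetyl-CoA to oxaloacetate at the entry of the cycle. Its level was 322, 366, 301, 421 and 355 CPM in the 5 T0 libraries. At T1 the lowest, median and highest libraries had 406, 535 and 592 CPM, and at T2 they had 319, 384 and 498 CPM. Of the T1 libraries, 7 of 8 lay above every T0 library, and the exception was m3 at 406 CPM. Every T2 library lay below the T1 median.

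The isocitrate dehydrogenase that uses NAD+ is built from IDH3A, its catalytic subunit, and from the regulatory subunits IDH3B and IDH3G. IDH3A (ENSECAG00000015278, chromosome 1, 115794478 to 115808622) was at 81.0, 77.0, 70.9, 79.5 and 59.9 CPM in T0 libraries. Its lowest, median and highest values were 63.6, 107 and 114 CPM at T1, and 70.7, 114 and 164 CPM at T2. At both later stages all but 1 library (m11 at T1, m15 at T2) exceeded the highest T0 library. IDH3B (ENSECAG00000000261, chromosome 22, 20064247 to 20069078) was at 93.9, 90.6, 80.4, 135 and 83.3 CPM in T0 libraries, where 135 CPM was library m12. Its lowest, median and highest values were 120, 145 and 181 CPM at T1, and 101, 133 and 173 CPM at T2. Apart from m12, every T0 library lay below every T1 and T2 library.

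OGDH (ENSECAG00000023953, chromosome 4, 15368902 to 15447474) encodes the first, decarboxylating component of the 2-oxoglutarate dehydrogenase complex, a regulated step of the cycle. It was at 263, 348, 279.8, 277 and 321 CPM in T0 libraries. At T1 the lowest, median and highest values were 303, 447 and 492 CPM, and at T2 they were 214, 290.1 and 404 CPM. T1 libraries m3 and m1, at 303 and 329 CPM, fell within the T0 range, while the other 6 lay above it. The T2 libraries spanned the T0 range, and all of them lay below the T1 median.

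Succinyl-CoA ligase, which makes ATP or GTP directly from succinyl-CoA, pairs the alpha subunit SUCLG1 with a beta subunit, either the ADP-using SUCLA2 or the GDP-using SUCLG2. SUCLA2 (ENSECAG00000011122, chromosome 17, 22980889 to 23020408) was within 312 to 341 CPM in T0 libraries. Its lowest, median and highest values were 327, 387 and 411 CPM at T1, and 297, 403 and 528 CPM at T2. Among T2 libraries, 9 of 10 lay above the highest T0 library. SUCLG1 (ENSECAG00000012979, chromosome 15, 19834395 to 19872151) averaged 297 ± 55.0, 382 ± 66.7 and 404 ± 81.2 CPM at T0, T1 and T2 (SD).

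SDHB (ENSECAG00000011758, chromosome 2, 36517337 to 36550070) is the iron-sulfur subunit of succinate dehydrogenase, which is both a cycle enzyme and complex II of the respiratory chain. It was at 403, 348, 327, 387 and 265 CPM in T0 libraries. Its lowest, median and highest values were 449, 539.6 and 689.6 CPM at T1, and 352, 555 and 584 CPM at T2. All 8 T1 libraries lay above all T0 libraries, as did 9 of the 10 T2 libraries. FH, fumarase (ENSECAG00000020726, chromosome 30, 3166734 to 3194173), which hydrates fumarate to malate, averaged 246 ± 55.5, 316 ± 27.2 and 335 ± 74.9 CPM at T0, T1 and T2. MDH2, the mitochondrial malate dehydrogenase that regenerates oxaloacetate (ENSECAG00000023094, chromosome 13, 10431318 to 10446396), averaged 609.8 ± 57.0, 761 ± 64.6 and 809.7 ± 142 CPM. T2 library m15 had the lowest T2 value of IDH3A, SUCLG1, SUCLA2, SDHB, FH, MDH2 and CS.

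After the gallop phase SDHB, IDH3B and CS stood higher than in untrained muscle. All 9 log2 fold changes of T1 against T0 were positive, with a median of 0.40 against -0.02 over all genes tested. By edgeR's quasi-likelihood test with Benjamini-Hochberg adjustment over all genes, 3 of the 9 rose and 6 did not pass. Over all genes 6.91% were called in this comparison, 3.57% higher and 3.34% lower. No member fell, also at an unadjusted p below 0.05 and by DESeq2 and limma voom.

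SDHB rose by 0.67 ± 0.15 (log2 fold change ± SE, adjusted p = 0.00731), to 549 ± 70.9 CPM at T1 against 346 ± 54.2 CPM at T0 (SD). Its T1 and T0 libraries did not overlap, which was so for 2.98% of all genes tested. IDH3B rose by 0.59 ± 0.15 (adjusted p = 0.0168), to 146 ± 19.2 CPM at T1 against 96.6 ± 22.05 CPM at T0. CS rose by 0.57 ± 0.14 (adjusted p = 0.0127), to 522 ± 58.7 CPM at T1 against 353 ± 46.0 CPM at T0. Without T0 library m10 the adjusted p of CS was 0.0507 and that of IDH3B 0.0562, while SDHB stayed called without any single library (highest adjusted p = 0.0282). With the fibre score as a covariate none of the 3 was called: SDHB gave 0.44 (adjusted p = 0.361), IDH3B 0.52 (0.338) and CS 0.72 (0.128), from groups that do not overlap in the score.

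OGDH was at 0.49 ± 0.15 for T1 against T0 (adjusted p = 0.0518). It passed by DESeq2 (adjusted p = 0.0127), by limma voom with sample weights (0.00737), and without libraries m3 and m12 (0.0398). For IDH3A the value was 0.40 ± 0.16 (adjusted p = 0.141), for SUCLG1 0.36 ± 0.16 (0.177), for FH 0.36 ± 0.16 (0.181), for MDH2 0.32 ± 0.14 (0.164) and for SUCLA2 0.23 ± 0.12 (0.288). DESeq2 called 4 members higher and limma voom 7. In either direction these tools called 9.99% and 12.8% of all genes, against 6.91% by edgeR. Of the fibre genes, 12 of 15 slow ones rose and 3 of 13 fast ones fell at T1 against T0. Their median log2 fold changes were 1.98 and -0.96. Fibroblast markers moved opposite to the members, with 2 of 5 measured fallen and a summed level of 64.5 to 164 CPM at T1 against 89.5 to 382 CPM at T0. None of the 5 was at 0. Of 2 measured satellite cell markers 1 rose, with a summed level of 17.04 to 56.9 CPM at T1 against 7.58 to 25.2 CPM at T0 and none at 0. Of 3 adipocyte markers 1 rose, and the fold changes of 2 were above 0. Their summed level was 114 to 323 CPM at T1 against 78.1 to 176 CPM at T0, with none at 0. The part of the fibroblast, satellite cell and adipocyte markers in the result was not tested.

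A further 6 cycle genes showed the same sign at T1 against T0, and 2 of them rose. DLST, the transferase component that works with OGDH, rose by 0.53 ± 0.13 (adjusted p = 0.0186). SUCLG2 rose by 0.63 ± 0.17 (adjusted p = 0.0248). DLST lost its call without m10, and SUCLG2 without m8, m10 or m13. With the fibre score as a covariate neither was called, with DLST at 0.72 (adjusted p = 0.128) and SUCLG2 at 0.28 (0.636). The catalytic subunit SDHA was at 0.44 ± 0.14 (adjusted p = 0.0523) with T1 and T0 libraries that did not overlap. The membrane anchor SDHC was at 0.40 ± 0.13 (0.0700), IDH3G at 0.41 ± 0.14 (0.0835) and the shared dehydrogenase component DLD at 0.24 ± 0.14 (0.330). Without m3 and m12, SDHA (adjusted p = 0.0345), SDHC (0.0320) and IDH3G (0.0263) passed.

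**Figure D2:**
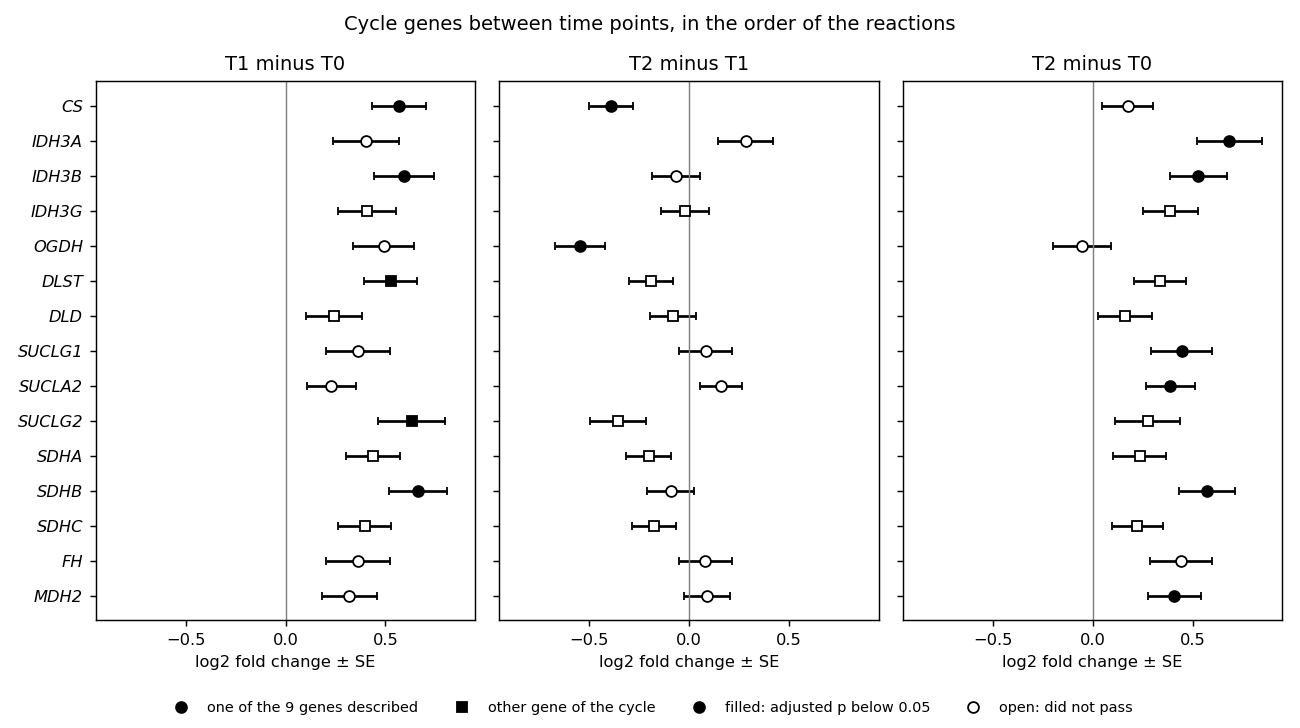
Log2 fold change ± SE (horizontal axes) of the 9 genes (circles) and 6 further cycle genes (squares), in the order of the reactions, for T1 against T0, T2 against T1 and T2 against T0; filled symbols have an adjusted p below 0.05. All 15 lie right of 0 at T1 against T0, and OGDH (-0.55) and CS (-0.39) are the filled circles left of 0 at T2 against T1.

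Between the gallop phase and the end of the season OGDH and CS fell, while the other 7 enzymes did not pass the test in either direction. OGDH fell, with a log2 value of -0.55 ± 0.13 (SE; adjusted p = 0.00239), to 287 ± 54.2 CPM at T2 against 418 ± 73.4 CPM at T1. CS fell likewise, at -0.39 ± 0.11 (adjusted p = 0.0101), to 398 ± 61.7 CPM at T2 against 522 ± 58.7 CPM at T1. Over all genes 27.6% were called in this comparison, 12.6% higher and 15.1% lower, so 2 of 9 is near the background share. Neither gene's T2 and T1 libraries were fully apart, which was so for 2.23% of all genes. Both calls held by every tool and setting tried and without any single library (highest adjusted p 0.0240 for CS and 0.00689 for OGDH). With the fibre score as a covariate CS was at -0.51 (adjusted p = 0.0136) and OGDH at -0.72 (0.00360), again from groups that do not overlap in the score. Of the fibre genes, 12 of 15 slow ones fell and 9 of 13 fast ones rose in the same comparison. Of 2 measured satellite cell markers 1 fell, with a summed level of 7.14 to 15.7 CPM at T2 against 17.04 to 56.9 CPM at T1, without overlap. A single marker also fell among 4 of macrophages, 5 of smooth muscle and pericytes and 3 of adipocytes. Fold changes were above 0 for 1 of the 4, 2 of the 5 and 2 of the 3. Summed over each list, macrophage markers were at 4.13 to 8.68 CPM at T2 against 4.59 to 11.8 CPM at T1. The sums were 69.4 to 149 against 59.1 to 115 CPM for smooth muscle and pericytes, and 120 to 275 against 114 to 323 CPM for adipocytes. No measured marker of these lists was at 0 and their part in the result was not tested.

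No member rose at T2 against T1 by edgeR, with 0 by DESeq2 and 0 by limma voom. At an unadjusted p below 0.05 by edgeR 1 member was higher, beside 2136 of all 11545 genes tested. The member was IDH3A, at 0.28 ± 0.14 (adjusted p = 0.122). It was called only in the fit without T2 library m15, at 0.35. SUCLA2 was at 0.16 ± 0.10 (adjusted p = 0.258), MDH2 at 0.09 ± 0.11 (0.585), SUCLG1 at 0.08 ± 0.13 (0.670) and FH at 0.08 ± 0.13 (0.682). IDH3B was at -0.06 ± 0.12 (adjusted p = 0.727) and SDHB at -0.09 ± 0.12 (0.590). Of the 6 further cycle genes 0 passed at T2 against T1 by edgeR, while 1 was lower at an unadjusted p below 0.05, 1 by DESeq2 and 2 by limma voom. Among all 11545 genes, 2426 were lower at that unadjusted p. DESeq2 called 30.5% and limma voom 38.0% of all genes in either direction. SUCLG2 was at -0.36 ± 0.14 (adjusted p = 0.0556), and the other 5 lay between -0.20 and -0.02.

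At the end of the season 6 of the 9 enzymes stood higher than in untrained muscle, and CS and OGDH were not among them. Over all genes 16% were called in this comparison, 6.73% higher and 9.3% lower, and the median log2 fold change was 0.44 for the 9 genes and -0.03 over all genes. No member fell, also at an unadjusted p below 0.05 and by DESeq2 and limma voom. IDH3A rose by 0.68 ± 0.16 (adjusted p = 0.00806), to 118 ± 25.7 CPM at T2 against 73.7 ± 8.60 CPM at T0. SDHB rose by 0.57 ± 0.14 (adjusted p = 0.00978), to 515 ± 80.7 CPM at T2 against 346 ± 54.2 CPM at T0. These 2 calls held under every setting and without any single library. No member's T2 and T0 libraries were fully apart, which was so for 2.67% of all genes. IDH3B rose by 0.53 ± 0.14 (adjusted p = 0.0161), to 139 ± 24.8 CPM at T2 against 96.6 ± 22.05 CPM at T0. Leaving out T0 library m13 brought its adjusted p to 0.0530.

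The remaining calls at T2 against T0 were closer to the threshold. SUCLA2 rose by 0.39 ± 0.12 (adjusted p = 0.0305), to 421 ± 67.3 CPM at T2 against 322 ± 11.3 CPM at T0, and lost its call without m9, m10, m13, m17 or m18. MDH2 rose by 0.41 ± 0.13 (adjusted p = 0.0379), a call lost without m8, m9, m10, m13, m16, m17 or m22 and with no filter on low counts (adjusted p = 0.0510). SUCLG1 rose by 0.45 ± 0.15 (adjusted p = 0.0498), a call that was kept in only 6 of the 23 fits without 1 library. SUCLG1 also lost its call with sex (adjusted p = 0.0520) or the fibre score (0.0575) as a covariate, with no filter on low counts (0.0524) and with only 2 stages in the fit (0.0655). With only 2 stages, SUCLA2 (adjusted p = 0.0519) and MDH2 (0.0643) were not called either. FH was at 0.44 ± 0.16 (adjusted p = 0.0523), and passed by DESeq2 (0.0183), by limma voom (0.00630) and without libraries m3 and m12 (0.00615). The number of members called ranged from 2 without m13 to 7 without m3, m11, m12, m15, m19 or m21. It was 3 without m9, m10 or m17. Of 5 measured smooth muscle and pericyte markers, 3 fell, with a summed level of 69.4 to 149 CPM at T2 against 67.4 to 337 CPM at T0 and none at 0, and their part in the result was not tested.

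CS and OGDH, which had fallen since T1, did not pass at T2 against T0. CS was at 0.17 ± 0.13 against T0 (adjusted p = 0.354), with a 95% interval of 0.940- to 1.36-fold. OGDH was at -0.05 ± 0.15 (adjusted p = 0.823), with an interval of 0.783- to 1.18-fold. None of the 6 further cycle genes passed at T2 against T0 by edgeR, while 2 were higher at an unadjusted p below 0.05, 2 by DESeq2 and 2 by limma voom. Among all 11545 genes, 1648 were higher at that unadjusted p. DESeq2 called 20.1% and limma voom 25.3% of all genes in either direction. The highest of the 6 was IDH3G at 0.39 ± 0.14 (adjusted p = 0.0553). Without m3 and m12, IDH3G (adjusted p = 0.00532), SUCLG2 (0.0444) and SDHC (0.0477) passed, and with the fibre score as a covariate DLST did (0.0439). Both fold changes of an enzyme from T0 use the same 5 T0 libraries. Its T1 against T0 and T2 against T1 values use the same 8 T1 libraries with opposite sign. A rise at T1 and a fall after it are therefore not independent.

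To compare the courses of the enzymes directly, the log2 ratio of each of the 36 pairs of members was taken within every library and compared between stages by an exact two-sided permutation test over libraries. A ratio within a library does not depend on its total count. This comparison was added after the fold changes were seen, and p-values were adjusted over the 108 tests. In T2 against T1, 8 pairs differed, and all 8 were among the 14 pairs that set CS or OGDH against one of the other 7 enzymes. CS and OGDH were set apart because they had fallen in this same comparison of the same libraries. The grouping of the pairs thus largely restates those fold changes and is not independent of them. Of the 21 pairs without CS and OGDH, none passed, and the CS to OGDH ratio did not pass either. At an unadjusted p below 0.05 there were 19 pairs. Those without CS and OGDH were SUCLG1 to SDHB (exact permutation p = 0.0144), SUCLA2 to SDHB (0.0153), IDH3A to SDHB (0.0181), SDHB to MDH2 (0.0325) and IDH3A to IDH3B (0.0442). Their adjusted p-values ran from 0.0634 to 0.122.

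**Figure D3:**
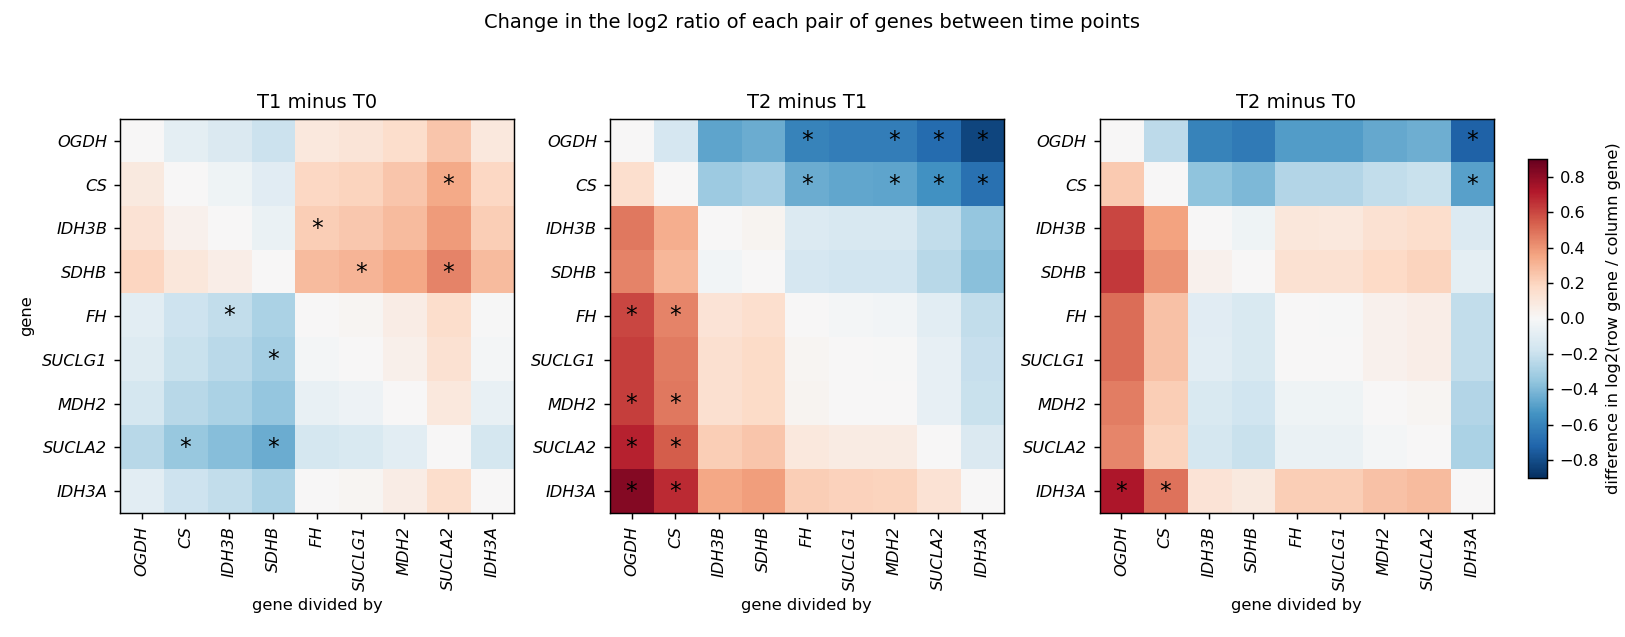
Difference in the mean log2 ratio of the gene on the vertical axis to the gene on the horizontal axis, for T1 against T0, T2 against T1 and T2 against T0 (colour scale in log2 units); an asterisk marks an adjusted p below 0.05 over 108 tests. In T2 against T1 all 8 marked pairs (each shown with its mirror image) lie in the OGDH and CS rows and columns.

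Citrate synthase fell most clearly against the catalytic isocitrate dehydrogenase subunit. The log2 ratio of CS to IDH3A ranged from 1.21 to 2.17 in T2 libraries and from 2.21 to 2.93 in T1 libraries, so the groups did not overlap. Its mean was 1.77 ± 0.28 at T2 against 2.44 ± 0.23 at T1, a difference of -0.67 (exact permutation p = 4.57e-05, adjusted p = 0.00494). The ratio of CS to SUCLA2 differed by -0.55 and that of CS to MDH2 by -0.47 (exact permutation test, adjusted p = 0.00494 each). The ratio of IDH3A to OGDH was -1.28 ± 0.40 at T2 against -2.11 ± 0.20 at T1, a difference of 0.82 (exact permutation test, adjusted p = 0.00494). OGDH to SUCLA2 differed by -0.69 (adjusted p = 0.0119) and OGDH to MDH2 by -0.62 (0.0104), by the same exact test.

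These 6 pairs stayed called without any single library. The 2 further pairs set CS and OGDH against FH, with differences of -0.45 (exact permutation test, adjusted p = 0.0329) and -0.60 (0.0387). The CS to FH call was lost in 3 and the OGDH to FH call in 12 of the 23 repeats without 1 library. The count of pairs in T2 against T1 ran from 6 without m5, m7 or m11 to 15 without m3. Without m3, all 14 pairs of CS or OGDH with another enzyme passed, and 1 pair without them did.

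In T1 against T0, 4 pairs differed. SDHB gained on SUCLA2: the log2 ratio of SUCLA2 to SDHB was -0.53 ± 0.23 at T1 against -0.09 ± 0.22 at T0, without overlap (exact permutation p = 7.77e-04, the smallest this design can give, adjusted p = 0.0120). CS also gained on SUCLA2 (difference 0.34, adjusted p = 0.0315), IDH3B on FH (0.22, 0.0381) and SDHB on SUCLG1 (log2 ratio of SUCLG1 to SDHB -0.31, 0.0480), by the same exact test. No pair passed here without T0 library m13, 2 did without m9, m10, m1, m2, m5, m7 or m11, and 9 without m3. In T2 against T0, the ratios of CS to IDH3A (-0.49, adjusted p = 0.0387) and of IDH3A to OGDH (0.73, 0.0381) differed by the exact test. None passed without m9, m10, m13 or m20, and 1 did without m5, m7, m11, m16, m18 or m22. There were 5 without m15, 6 without m8, and 7 without m3, m12, m19 or m23.

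Subunits of the same enzyme were compared in the same way over 6 subunit pairs and 3 comparisons, with p-values adjusted over these 18 tests. The beta subunits of succinyl-CoA ligase differed in T2 against T1. The log2 ratio of the ADP-using SUCLA2 to the GDP-using SUCLG2 was 1.90 ± 0.26 at T2 against 1.38 ± 0.32 at T1, a difference of 0.51 (exact permutation p = 0.00155, adjusted p = 0.0280). The groups overlapped, with 1.39 to 2.19 at T2 and 0.750 to 1.86 at T1. This call was lost without m2, m3, m11, m16, m17, m18, m21 or m22. At T1 against T0 the same ratio differed by -0.41, with 1.38 ± 0.32 at T1 against 1.79 ± 0.26 at T0 (exact permutation test, adjusted p = 0.112).

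The ratios of OGDH to its partner DLST and of SDHB to SDHA did not pass the adjusted threshold. The log2 ratio of OGDH to DLST was 0.829 ± 0.280 at T2 against 1.19 ± 0.12 at T1 (difference -0.36, exact permutation p = 0.00578, adjusted p = 0.0520). At T0 it was 1.23 ± 0.13 (T2 against T0 -0.40, exact permutation test, adjusted p = 0.0719). Of the T2 libraries, 5 lay at or below 0.627 and 5 at or above 0.883, while 7 of 8 T1 libraries lay at or above 1.16. This division of T2 was read from the values and was not tested. For SDHB to SDHA the log2 ratio was -0.51 ± 0.20 at T2 against -0.86 ± 0.31 at T0 (difference 0.35, exact permutation test, adjusted p = 0.0719). The ratio of IDH3A to IDH3B differed by 0.35 in T2 against T1 (exact permutation test, adjusted p = 0.132) and that of IDH3A to IDH3G by 0.30 (0.222). SUCLA2 to SUCLG1 gave adjusted p-values of 0.638 by the exact test in each comparison.

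**Figure D4:**
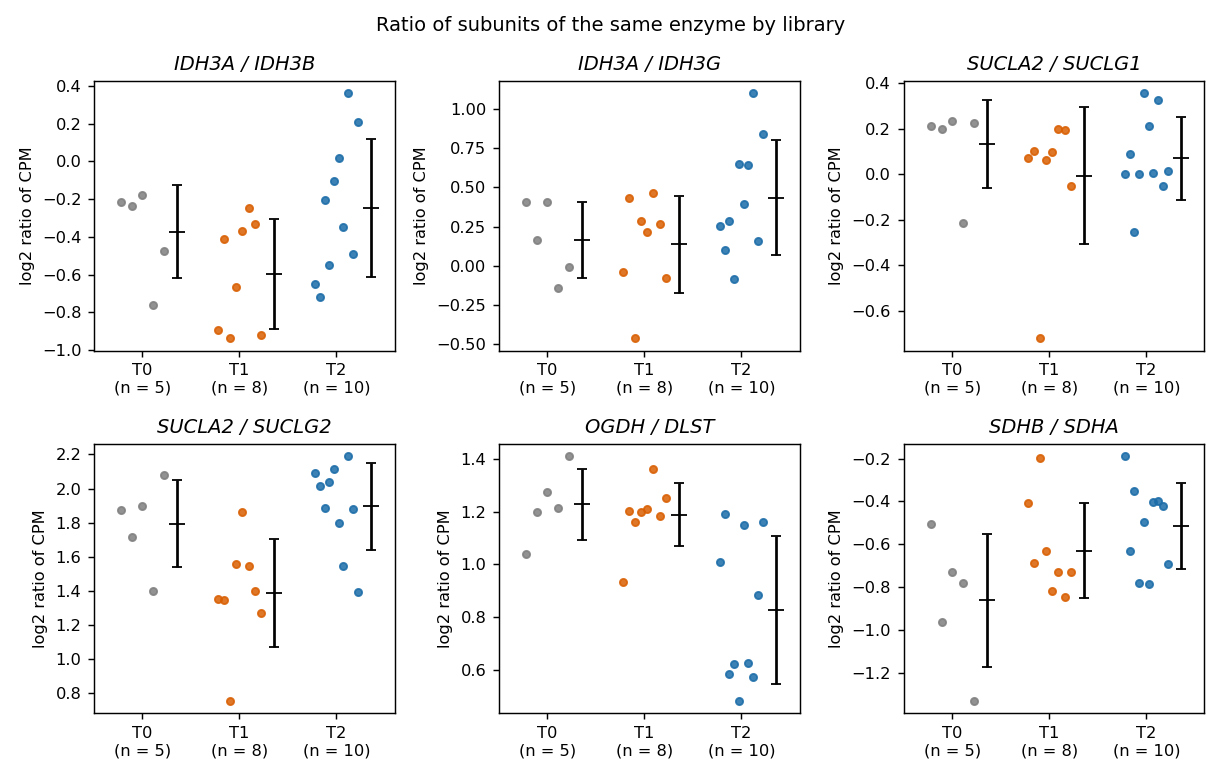
Log2 ratio of CPM (vertical axes) between subunits of the same enzyme in every library at T0 (n = 5), T1 (n = 8) and T2 (n = 10), with mean ± SD beside the points. SUCLA2 to SUCLG2 is higher at T2 (mean 1.90) than at T1 (mean 1.38), and OGDH to DLST spreads downward at T2 to 0.484.

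Over the 23 libraries the median Pearson r of the 36 pairs of log2 CPM was 0.62. After subtracting the mean of each stage, the median was 0.49, from -0.32 for OGDH with SUCLG1 to 0.85 for SUCLG1 with FH. These values share library, depth and scaling, and are given as a description. On the second measure MDH2 had the highest mean r with the other 8 genes, at 0.57, and OGDH the lowest, at 0.10. OGDH was correlated with CS at 0.67 and with no other member above 0.33. FH, SUCLG1, SDHB and MDH2 had r values of 0.64 to 0.85 among themselves.

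**Figure D5:**
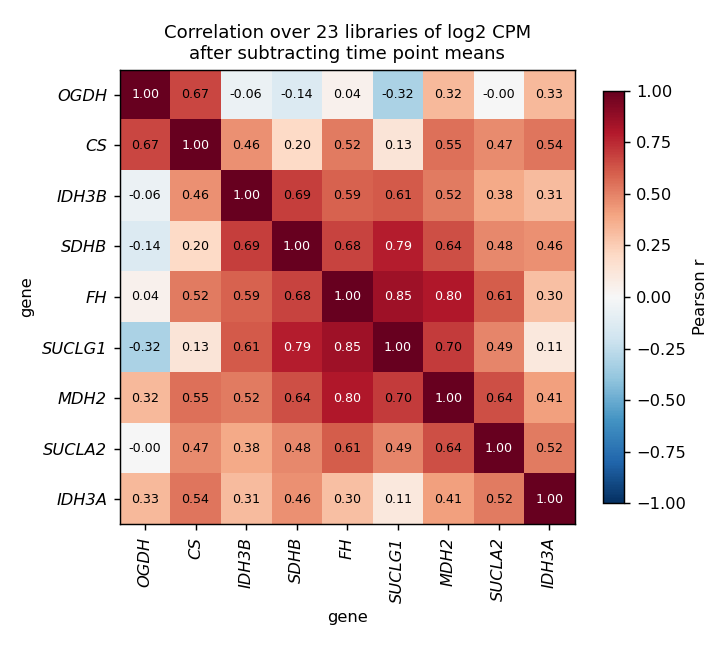
Pearson r between the log2 CPM of each pair of the 9 genes over 23 libraries after subtracting stage means (colour scale and printed values). FH, SUCLG1, SDHB and MDH2 form a block of high values, up to 0.85, and OGDH is close to 0 or negative with all but CS, IDH3A and MDH2.

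Among 6392 annotated genes outside the 9, the 8 whose log2 CPM was most like the mean of the standardised member values over 23 libraries included POLDIP2 (r = 0.95), NDUFA10 (0.94), ATP5B (0.94), IDH2 (0.93), IMMT (0.93), ATP5A1 (0.91) and UQCRC1 (0.91). The median r over all ranked genes was 0.05. NDUFA10 encodes a subunit of respiratory complex I, UQCRC1 one of complex III, and ATP5B and ATP5A1 the beta and alpha subunits of ATP synthase. IMMT encodes a protein that shapes the cristae of the inner mitochondrial membrane. After subtracting stage means the 8 included IDH2 (0.93), POLDIP2 (0.92), PDHB (0.88), NDUFA10 (0.87), ATP5B (0.87), IMMT (0.86) and PDHA1 (0.86). PDHA1 and PDHB are the subunits of the first component of pyruvate dehydrogenase, which feeds acetyl-CoA into the cycle. Without m3 and m12, 7 of the first 8 and 5 of the second 8 stayed among the 8 highest.

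Within a stage, the levels were set against the fibre score of the same libraries, in 18 relations over T1 (n = 8) and T2 (n = 10). Only CS at T1 passed adjustment, with a Pearson r of -0.94 (exact permutation p = 0.00104, adjusted p = 0.0188). Its Spearman rho was -0.79 (exact permutation p = 0.0279, adjusted p = 0.478). Without the 2 libraries farthest from the median score, m3 and m11, r was -0.75 (exact permutation p = 0.0861) over the 6 that remained, so it no longer passed. OGDH (-0.80) and SUCLA2 (-0.79) at T1 had an unadjusted p below 0.05 but adjusted p-values of 0.153 and 0.208 by the exact permutation test. SUCLG1 at T1 had an r of 0.85 in the other direction (exact permutation p = 0.0799, adjusted p = 0.288), and of 0.84 without m3 and m11 (exact permutation p = 0.05). SUCLA2 turned to 0.68 without m3 and m11. At T2 the 9 Pearson r values lay between -0.13 and 0.43 and none passed by permutation, with the smallest adjusted p at 0.480. Without m17 and m23, the T2 libraries farthest from the median score, they lay between 0.08 (OGDH) and 0.86 (IDH3B). There IDH3B had an exact permutation p of 0.00707 (adjusted p = 0.127). CS then had an r of 0.73 (exact permutation p = 0.0396, adjusted p = 0.2375), opposite in sign to T1. None passed adjustment.

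OGDH was the only member with more than 1 annotated transcript. OGDH-202 took 81.4% ± 3.25, 80.6% ± 2.32 and 82.1% ± 6.34 of its counts at T0, T1 and T2 (SD), and OGDH-201 the rest. Both fell in T2 against T1 when 12334 transcripts were tested with edgeR, with log2 values of -0.52 ± 0.13 for OGDH-202 (adjusted p = 0.00680) and -0.66 ± 0.20 for OGDH-201 (0.0163). The fall of OGDH was thus seen in both transcripts as RSEM divided the counts.

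No difference between the sexes passed the test. The change of a member between stages did not differ between males and females in any of the 27 tests (edgeR, adjusted p at least 0.998), and no gene of the 11545 passed. Unadjusted, 0 of the members and 483, 448 and 179 of all genes were below 0.05 for T1 against T0, T2 against T0 and T2 against T1. With stage in the model, SDHB was higher in males than in females by 0.22 on the log2 scale (unadjusted p = 0.0426, edgeR adjusted p = 0.797), as 1 of 719 genes at that unadjusted threshold.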

How the data were processed

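The authors sequenced muscle RNA in 50 single-end cycles with 6 technical repetitions, per the labels; how these were pooled, the aligner settings and the genome build are not given in the sources used here. Per the submitters' processing notes, FastQC, STAR, RSEM and DESeq2 were used, with no versions. The authors deposited expected counts per gene and transcript, which are whole numbers in the file. Symbols and coordinates come from the authors' deposited annotation, which covers 9628 identifiers, 8842 with a symbol. The authors' own fold changes were not used, since their tables name groups by letters.

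Genes were kept by filterByExpr (minimum count 10, minimum total 15), which left 11545 genes with 99.9% of counts. One model of the 3 stages was fitted to TMM-scaled counts in R 4.3.3 by the robust quasi-likelihood F test of edgeR 4.0.16. P-values were adjusted over all genes by the Benjamini-Hochberg method at 0.05. The standard error is the absolute log2 fold change divided by the square root of F. Log2 CPM used a prior count of 2. Ratios were tested by exact two-sided permutation, and correlations with the fibre score by exact permutation (T1, and T2 without m17 and m23) or 100000 resamples (all T2 libraries), with scipy 1.17.1. The edgeR test was checked on simulated counts with planted 2- and 4-fold changes. These are larger than any fold change of a member reported here, and changes of the members' size were not simulated. Alternatives were median ratio factors, nuclear genes only, no filter, DESeq2 1.42.0, limma 3.58.1 voom with sample weights, 2 stages in the fit, sex or fibre score as a covariate, a fit that was not robust, a prior count of 0.5 for ratios, no m3 and m12, and leaving out each library. The members, lists, tests and named genes (all members, other cycle genes, up to 2 called genes with the smallest p per neighbouring list and comparison, and the 8 most correlated genes) were chosen with earlier results of these data known; some genes of these lists are not reported here. Intervals on fold changes are the log2 fold change plus or minus the t quantile times its SE. No sequences are printed, since the reference tables used here hold none.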

Additional observations from a re-analysis of the deposited data

Results flagged for a closer look

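In 57 sets of values (a gene, ratio, share or score within 1 stage), 8 had a highest or lowest library set apart from the rest by Dixon's criterion at 95%, where chance gives about 1 in 20. T0 library m12 was the highest for IDH3B (134.8 CPM, next 93.9), SUCLG1 (394.8 CPM, next 281.8) and FH (341.6 CPM, next 239.4), and the lowest for the log2 ratio of SUCLA2 to SUCLG1 (-0.21, next 0.20). T1 library m3 was the highest for SUCLG1 (541.9 CPM, next 391.3) and for the slow minus fast fibre score (3.66, next 0.43), and the lowest for the log2 ratio of SUCLA2 to SUCLG1 (-0.72, next -0.05). T1 library m1 was the lowest for the log2 ratio of OGDH to DLST (0.934, next 1.16). Library m12 also had the highest mitochondrially encoded share of counts at T0, 54.9%, and m3 the highest at T1, 56.7%. The TMM factors of both were the lowest of their stage, 0.749 for m12 (other T0 libraries 1.06 to 1.45) and 0.660 for m3. A lower factor gives a higher CPM. In m12 the 9 genes made up 0.507% of nuclear-encoded counts, within the T0 range of 0.448% to 0.652%. In m3 they made up 0.550%, the lowest share at T1. The part of these shares and factors in the values above was not tested.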

How the results depend on the processing

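No paired analysis was possible because the labels do not say whether stages share horses. Depth was 12185608 to 23641809 counts per library, and the 5 T0 libraries limit every comparison with T0. With limma voom 1476 genes (edgeR 798) and 7 members were called at T1 against T0, and 2921 genes (edgeR 1851) at T2 against T0. With only 2 stages in the fit, 3 members were called at T2 against T0. With the fibre score as a covariate, 1 gene and 0 members were called at T1 against T0, and at T2 against T1 SDHB turned to 0.095, IDH3G to 0.079 and SDHC to 0.010. Without m3 and m12, 2947 genes were called at T2 against T0, IDH3G at T2 against T1 turned to 0.037, and 35 pair ratios passed in place of 14. Without the 2 libraries farthest from the median score, 0 fibre score relations passed, and r turned to -0.018 for IDH3B and 0.68 for SUCLA2 at T1, and to 0.31 for SUCLG1, 0.35 for SUCLA2 and 0.26 for MDH2 at T2. The causes were not tested.

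Leaving out 1 library gave 346 (without m10) to 904 (without m12) genes and 1 to 4 members at T1 against T0, 2665 to 3775 genes and 2 to 3 members at T2 against T1, and 986 (without m13) to 2414 (without m12) genes and 2 to 7 members at T2 against T0. Subunit ratios passing ranged from 0 to 4 and pair ratios from 7 (without m13) to 31 (without m3). Signs turned for IDH3G at T2 against T1 (range -0.089 to 0.036, above 0 without m3 or m15), OGDH at T2 against T0 (-0.12 to 0.018, above 0 without m9), the T1 against T0 ratios of IDH3A to IDH3G (-0.11 to 0.056, above 0 without m3, m8, m10 or m11) and OGDH to DLST (-0.086 to 0.0063, above 0 without m13), and the T2 against T1 ratio of SUCLA2 to SUCLG1 (-0.027 to 0.11, below 0 without m3). Of all single-gene, ratio and correlation values under the alternatives, 2403 kept their direction and side of the threshold, 128 lost a call, 80 gained one and 18 changed sign.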

Other observations

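The cytosolic malate dehydrogenase MDH1, which exchanges reducing equivalents with MDH2 across the mitochondrial membrane, rose by 0.76 ± 0.18 (log2 fold change ± SE) at T1 against T0 (edgeR, adjusted p = 0.0143), to 1027 CPM at T1 against 607 CPM at T0 and without overlap. It was still higher at T2 against T0 (0.64 ± 0.18, adjusted p = 0.0190, lost without m13). IDH2, the mitochondrial isocitrate dehydrogenase that uses NADP+, rose by 0.54 ± 0.15 at T1 against T0 (adjusted p = 0.0250, lost without m10 or m13). Of 5 enzymes that handle cycle metabolites outside the cycle, 2 rose and 3 did not pass at T1 against T0, where 6.91% of all genes were called. At T2 against T0, with 16% of all genes called, 1 rose, 1 fell and 3 did not pass. The gene that fell was ACLY, the cytosolic enzyme that cleaves citrate (-0.62 ± 0.21, adjusted p = 0.0464, lost in 16 of the 23 fits without 1 library).

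Of 10 measured genes that feed or drain cycle intermediates, 2 rose, 1 fell and 7 did not pass at T1 against T0, where 6.91% of all genes were called. The gene that fell was PC, pyruvate carboxylase, which makes oxaloacetate from pyruvate (-0.86 ± 0.25, adjusted p = 0.0378, lost in 8 of the 23 fits without 1 library), and it was picked out after its value was seen. The mitochondrial malic enzymes ME3 (1.40 ± 0.23, adjusted p = 0.00113) and ME2 (0.98 ± 0.23, adjusted p = 0.0116) rose by edgeR, each without overlap between T1 and T0. At T2 against T1, ME3 fell (-0.85 ± 0.18, adjusted p = 0.00112) and the cytosolic malic enzyme ME1 rose by 0.76 ± 0.13 (2.43e-04), to 7.23 CPM at T2 against 4.26 CPM at T1. ME1 was also higher at T2 against T0 (0.47 ± 0.15, adjusted p = 0.0389, lost in 8 of the 23 fits and without m3 and m12, at 0.0551). Of 2 measured succinate dehydrogenase assembly factors, SDHAF3 rose at T2 against T1 (0.50 ± 0.13, adjusted p = 0.00592) and SDHAF4 was at 0.08 ± 0.14. SDHAF3 was at low levels, 3.45 CPM at T2 against 2.42 CPM at T1, and 12.6% of all genes rose in this comparison. Among 12 regulators of mitochondrial genes, 2 rose at T1 against T0 and 5 fell at T2 against T1. Over all genes 3.57% rose at T1 against T0, and 15.1% fell at T2 against T1. ESRRB, an orphan nuclear receptor, rose by 1.21 ± 0.25 at T1 against T0 (edgeR, adjusted p = 0.00528) and fell at T2 against T1 (-1.56 ± 0.21, adjusted p = 1.54e-05), at levels of 0.948, 2.17 and 0.722 CPM at T0, T1 and T2. Its relative ESRRA rose by 0.45 ± 0.12 at T1 against T0 (adjusted p = 0.0233, lost without m9 or m10). PPARA, a nuclear receptor that governs fatty acid oxidation genes, fell at T2 against T1 (-1.69 ± 0.22, adjusted p = 1.72e-05), to 6.82 CPM at T2 against 22.1 CPM at T1, without overlap. At T2 against T0, PPARA (-0.90 ± 0.25, adjusted p = 0.0208, lost without m9) and NRF1, an activator of nuclear genes for mitochondrial proteins (-0.45 ± 0.14, adjusted p = 0.0310, lost without m8, m9, m12 or m13, and at 0.0848 without m3 and m12), fell. With the fibre score as a covariate, all T1 against T0 calls named here were lost, with log2 values of -0.15 for PC, 0.34 for MDH1, 0.48 for IDH2, 0.64 for ME3, 0.77 for ME2, 0.44 for ESRRA and 0.78 for ESRRB (edgeR, adjusted p at least 0.249). The T2 against T1 calls of ME3 (-0.23, adjusted p = 0.336) and SDHAF3 (0.35, 0.171) and the T2 against T0 call of ACLY (-0.59, 0.0633) were lost too, while the T2 against T1 calls of ME1, ESRRB and PPARA were kept. T1 libraries do not overlap those of T0 or T2 in the score, which limits these T1 against T0 and T2 against T1 values.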
